A study of Mus musculus with 9 samples.

Results

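The genes followed here were 10 antioxidant genes of the NRF2 system, chosen by name from textbook knowledge of the pathway out of the 20926 genes in the deposited table. They are Nfe2l2, which encodes the transcription factor NRF2, and 9 genes of enzymes that remove or buffer oxidants, namely Hmox1, Gclm, Gclc, Txnrd1, Prdx1, Sod1, Sod2, Cat and Gpx1. No measured value entered the choice, although other results of these libraries were known when it was made. All 10 were among the 12366 genes with enough signal to be tested. Blood RNA was sequenced from 9 male DBA/1 mice labelled as 7 weeks old, with 3 libraries in each of 3 groups. The paper gives this age for the division into groups, before the collagen injections, so the arthritic mice were older when blood was taken. Ctrl mice had no arthritis and no irradiation. CIA mice had collagen-induced arthritis, a model of rheumatoid arthritis that is started by injecting chick type II collagen in adjuvant, and were not irradiated. In CIA+THz mice, the same model was followed by 0.1 THz irradiation of the swollen ankle joints for 30 min per day over 14 days. Isoflurane anaesthesia is described for the irradiated mice and is not stated for the others, so irradiation and anaesthesia cannot be told apart. The 3 libraries of a group are labelled as separate samples, and p-values measure the spread between them.

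NRF2 is held at a low level in resting cells by KEAP1, which marks it for degradation, and it is released when oxidants or electrophiles modify KEAP1. It then pairs with a small MAF protein at the antioxidant response element, where BACH1 represses several of the same genes. In blood, catalase, peroxiredoxins and glutathione peroxidase are abundant in red cells and their precursors, whereas HMOX1 is prominent in monocytes and macrophages, which break down heme. Because much of NRF2 control acts on the protein, the level of Nfe2l2 RNA and the activity of NRF2 are different quantities, and only RNA was measured here.

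The antioxidant response element connects Nfe2l2 to the other genes, so the promoters were searched for its core, TGAC, any 3 bases and then GC, on both strands from 250 bases before to 50 bases after each RefSeq start on GRCm38.p6. A promoter was at hand for 8 of the 10 genes, all but Hmox1 and Gclc. At least 1 match was found for 5 of these 8 genes, against 3781 of all 27025 genes with a promoter (14.0%). For the genes of the pathway lists followed below it was 10 of 53 (18.9%). Counted by promoter it was 5 of 10 for the members and 12.4% for all genes. The matches of the members are shown with 20 bases on each side, or up to the edge of the promoter, in the direction of the gene. The core is in capitals. They allow the members with and without a match to be compared in their RNA. In Nfe2l2 the core reads along the gene, and in the other 4 genes it lies on the opposite strand, so the capitals are its reverse complement.
Nfe2l2 (chr2:75704875-75704913, minus strand, core 240 bases before the start): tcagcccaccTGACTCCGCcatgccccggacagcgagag
Gclm (chr3:122245403-122245451, plus strand, core 134 bases before the start): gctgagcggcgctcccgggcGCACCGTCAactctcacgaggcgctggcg
Txnrd1 (chr10:82859094-82859142, plus strand, core 92 bases before the start): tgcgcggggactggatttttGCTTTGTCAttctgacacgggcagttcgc
Prdx1 (chr4:116685446-116685494, plus strand, core 133 bases before the start): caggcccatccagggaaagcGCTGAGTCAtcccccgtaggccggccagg
Sod1 (chr16:90220686-90220734, plus strand, core 56 bases before the start): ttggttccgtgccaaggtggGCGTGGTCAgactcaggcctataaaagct
In Prdx1 the core TGACTCAGC also contains TGACTCA, the site of AP-1 factors, so the letters do not separate the 2 kinds of factor. Txnrd1 has 3 RefSeq promoters, and 1 of them holds the match. No match was found in the windows of Sod2, Cat and Gpx1, which says only that these letters are not there. A match is a description of the sequence, and binding was not measured.

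The levels of the 10 genes spanned a wide range. All values are FPKM, sequenced fragments scaled by transcript length and library total, after division by 1 factor per library, and are called rescaled FPKM here. Gpx1, which encodes the main cellular glutathione peroxidase, was highest with a mean of 1511 over the 9 libraries. It was followed by Cat at 125, Prdx1 at 70.7, Gclm at 43.9, Sod1 at 30.0, Hmox1 at 25.1, Nfe2l2 at 11.9, Txnrd1 at 9.38, Gclc at 7.94 and Sod2 at 3.18. The ranges over the 9 libraries did not overlap between Gpx1 and Cat or between Hmox1 and Nfe2l2, and they overlapped between the other neighbours in this order. Within libraries, however, Cat exceeded Prdx1, Gclm exceeded Sod1 and Gclc exceeded Sod2 in all 9.

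**Figure D1:**
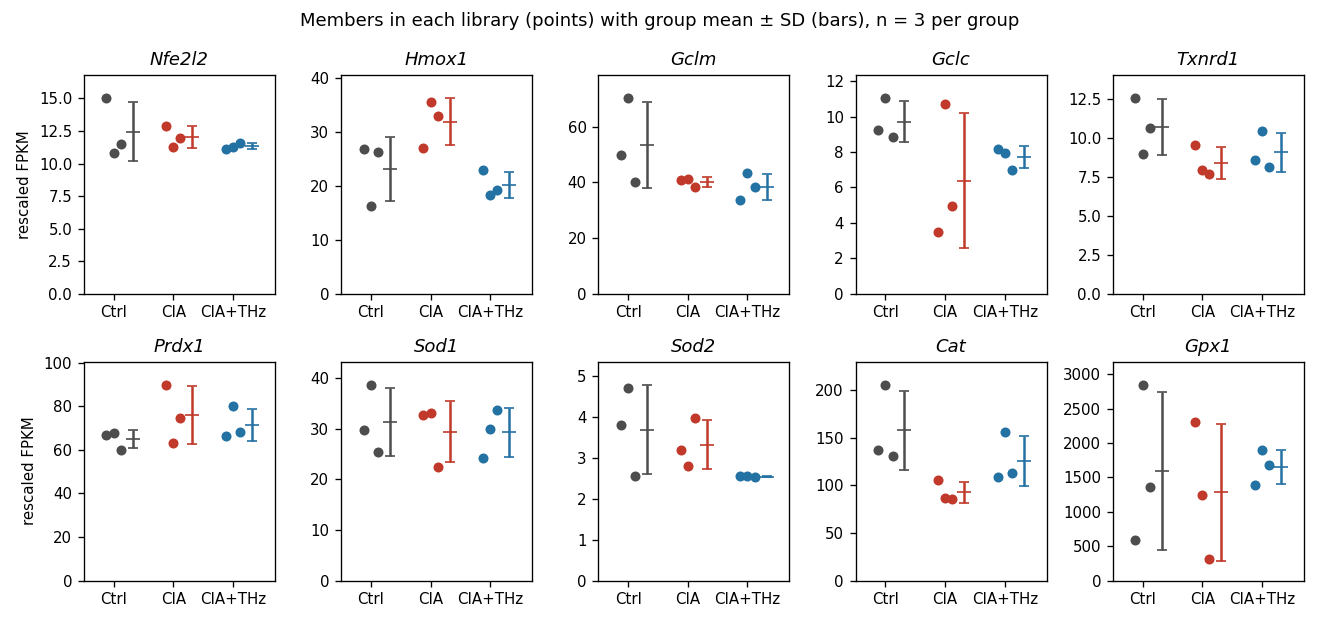
Rescaled FPKM (vertical axis, from 0, with its own scale for each gene) of the 10 genes in the Ctrl, CIA and CIA+THz libraries, with points for libraries and bars for the group mean ± SD (n = 3). Cat was below all Ctrl libraries in all 3 CIA libraries, Hmox1 was above all Ctrl libraries in all 3 CIA libraries, and Gpx1 ran from 309 to 2844.

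When the 3 groups were compared at once by limma's moderated F-test, Cat and Hmox1, 2 of the 10 genes, passed an unadjusted p of 0.05, as did 21.3% of all genes tested. With FPKM as deposited, and on a TPM scale where each column is divided by its sum, the 2 genes were Prdx1 and Cat in place of Hmox1 and Cat. None of the 10 had a Benjamini-Hochberg adjusted p under 0.05 over all genes, against 2.53% of all genes. Between pairs of groups a gene was called where limma gave an unadjusted p below 0.05 together with a log2 fold change beyond 0.67 in either direction. By this rule 1 of 10 genes, Cat, was called in CIA against Ctrl, where it was lower and 9.04% of all genes were called. In CIA+THz against CIA the rule called 0 of 10 genes and 4.54% of all genes, and with an unadjusted p under 0.05 alone it was 2 of 10 and 13.2%. The count for CIA+THz against Ctrl was 0 of 10 and 7.88%, and no member had an unadjusted p under 0.05 there after rescaling. On the scale of FPKM as deposited 1 of 10 did, Prdx1, which was higher, as were 21.5% of all genes at that p. These shares of the 10 genes were near or below those of all genes. The comparisons share groups, so they are not independent of each other.

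The directions were mixed. In CIA against Ctrl, 8 of 10 genes had a negative and 2 a positive log2 fold change, with a median of -0.23 beside -0.01 over all genes tested. For CIA+THz and CIA, 5 were positive and 5 negative, with a median of -0.03 beside 0.03. With Ctrl as the baseline of CIA+THz, 8 were negative and 2 positive, with a median of -0.20 beside 0.04. The scaling bears on the last pair of these counts. The rescaling lowered CIA+THz against CIA by 0.28 and CIA+THz against Ctrl by 0.31 on the log2 scale relative to FPKM as deposited. With FPKM as deposited CIA+THz was the higher group for 8 of 10 genes beside CIA and for 6 of 10 beside Ctrl. Of all 12394 genes tested on that scale, 9802 were higher beside CIA and 9599 beside Ctrl. The same rescaling lowered CIA against Ctrl by 0.03, and the 8 of 10 lower genes there were also 8 with FPKM as deposited. That count leaned on 1 library, Ctrl replicate 2, the highest of Ctrl in Gclm, Gclc, Prdx1, Sod1, Sod2, Cat and Gpx1. Without it Sod1 (0.075), Sod2 (0.074) and Gpx1 (0.10) turned positive in CIA against Ctrl, and the other lower genes stayed lower.

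**Figure D2:**
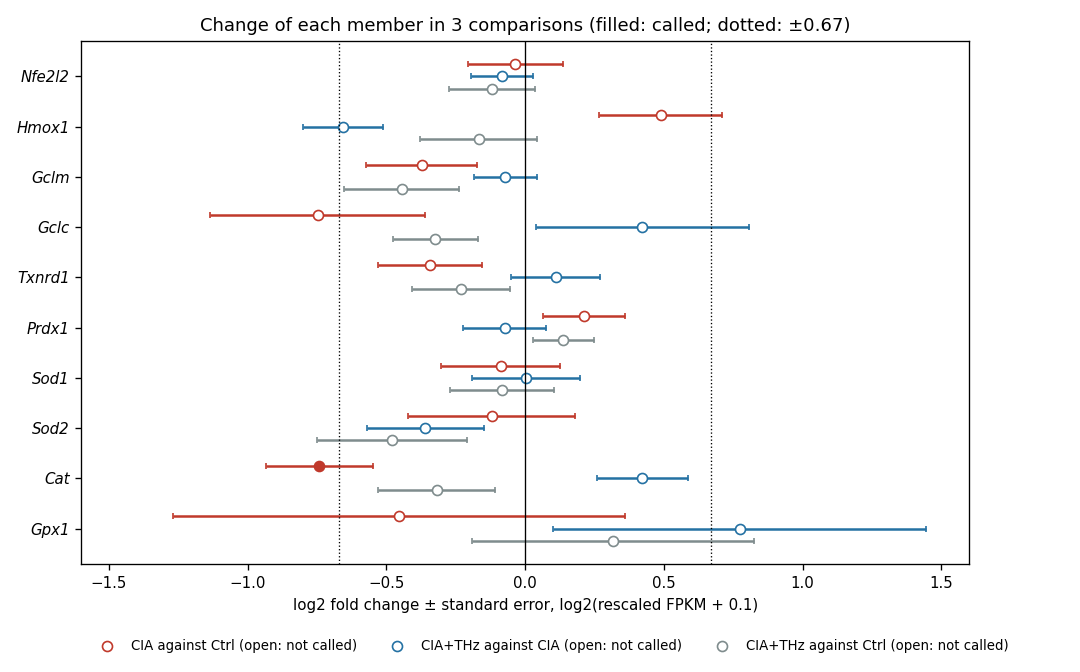
Difference in log2(rescaled FPKM + 0.1) of each gene (horizontal axis) in 3 comparisons, with bars for the standard error of limma and dotted lines at 0.67 in either direction. Filled points are called, and the only one is Cat in CIA against Ctrl at -0.74; with FPKM as deposited the points of CIA+THz against CIA move to the right, and those of Nfe2l2, Gclm and Prdx1 cross 0.

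Nfe2l2 (chromosome 2 of GRCm38, 75675513 to 75704641) was among the steadiest of the 10. Its rescaled FPKM was 15.0, 10.8 and 11.5 in the Ctrl libraries, 12.9, 11.2 and 11.9 in the CIA libraries and 11.1, 11.3 and 11.6 in the CIA+THz libraries. The 3 groups overlapped, and 1 Ctrl library was above the rest. The log2 fold change was -0.04 ± 0.17 (SE, n = 3 per group) in CIA against Ctrl, with an adjusted p of 0.939 by limma. It was -0.08 ± 0.11 in CIA+THz against CIA and -0.12 ± 0.16 in CIA+THz against Ctrl, and with FPKM as deposited both of these turned to 0.19.

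The proteins that hold NRF2 in check were followed beside it. Keap1 was at 0.688 to 1.20 times the level of Nfe2l2 in the 9 libraries, and Bach1, the repressor that competes at the response element, was at 2.27 to 3.87 times its level. The Ctrl, CIA and CIA+THz means of Keap1 were 11.1 ± 1.499 (SD, n = 3), 12.4 ± 1.67 and 11.2 ± 1.17. Those of Bach1 were 39.4 ± 4.69, 35.2 ± 9.55 and 37.2 ± 2.43. For both genes all pairs of groups overlapped. Of the 12 partners and regulators of NRF2 that were listed, 0 were called in any of the 3 comparisons by limma. At an unadjusted p under 0.05 alone it was 0 in CIA against Ctrl, and 2 in each of the comparisons of CIA+THz with CIA and with Ctrl. One of them was Sqstm1, the highest of the list and an autophagy receptor that binds KEAP1, with a log2 fold change of -0.28 ± 0.11 in CIA+THz against CIA (near 0 with FPKM as deposited) and an adjusted p of 0.339 by limma. With FPKM as deposited none of the 12 genes was lower in that comparison at an unadjusted p under 0.05, and 1 was higher.

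Hmox1 (chromosome 8, 75093621 to 75100589), heme oxygenase 1, was highest in the CIA group. Its rescaled FPKM was 26.8, 16.2 and 26.4 in Ctrl, 27.1, 35.7 and 33.0 in CIA, and 23.0, 18.4 and 19.2 in CIA+THz. All CIA libraries were above all others, by a narrow margin over 2 Ctrl libraries, and the CIA+THz libraries lay within the range of Ctrl. With FPKM as deposited, CIA replicate 1 at 24.7 was below Ctrl replicate 3 at 27.9 and CIA+THz replicate 1 at 28.5. The change, as a log2 fold, was 0.49 ± 0.22 in CIA against Ctrl, with an unadjusted p of 0.0623 and an adjusted p of 0.312 by limma. Against CIA, the CIA+THz value was -0.66 ± 0.14, a ratio of 0.634, with an unadjusted p of 0.00274 and an adjusted p of 0.210 by limma. This fell just short of the fold change the rule asks for, and it passed without CIA replicate 1 (-0.77) or without CIA+THz replicate 1 (-0.75). The value with FPKM as deposited was -0.38, with an unadjusted p of 0.0765 by limma. Against Ctrl, the CIA+THz value was -0.17 ± 0.21, or 0.14 with FPKM as deposited. Across the 3 groups the unadjusted p was 0.0190 and the adjusted p 0.155 by limma, and Hmox1 was no longer under 0.05 with FPKM as deposited, on the TPM scale, without a trend of the variance on the mean, or without CIA replicate 2 or 3.

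Monocyte markers moved in the same direction as Hmox1 in CIA against Ctrl and in CIA+THz against CIA, but not in CIA+THz against Ctrl after rescaling. The summed level of 9 monocyte markers was 3216 to 3558 in Ctrl, 5540 to 6188 in CIA and 3768 to 4052 in CIA+THz. All 9 had their higher level in CIA when compared with Ctrl, and 8 of 9 had a negative fold change in CIA+THz against CIA, or 5 of 9 with FPKM as deposited. In CIA+THz against Ctrl 7 of 9 were higher, with a median of 0.64, where Hmox1 was at -0.17. Limma called 3 of them higher, beside 574 of all 12366 genes. With FPKM as deposited 9 of 9 were higher there, and Hmox1 was at 0.14. In bulk blood, more cells of a type and more RNA per cell cannot be told apart, and the part of these cells in the level of Hmox1 was not tested.

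Gclm and Gclc encode the modifier and the catalytic subunit of glutamate-cysteine ligase, the first and rate-limiting enzyme of glutathione synthesis. Gclm (chromosome 3, 122245557 to 122270732) was 49.7, 70.2 and 40.2 in Ctrl, 40.9, 41.3 and 38.2 in CIA, and 33.6, 43.2 and 38.2 in CIA+THz. The groups overlapped, and Ctrl replicate 2 was far above the rest. Its log2 fold change was -0.37 ± 0.20 in CIA against Ctrl, with an adjusted p of 0.382 by limma, and -0.44 ± 0.21 in CIA+THz against Ctrl, with an adjusted p of 0.311. For CIA+THz against CIA it was -0.07 ± 0.11, or 0.20 with FPKM as deposited.

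Gclc (chromosome 9, 77754535 to 77794485) varied most within the CIA group. It was 9.26, 11.04 and 8.84 in Ctrl, 3.50, 10.7 and 4.95 in CIA, and 8.20, 7.93 and 7.01 in CIA+THz. In CIA, 2 libraries were below all others and CIA replicate 2 was near the top of Ctrl, while the CIA+THz libraries were all just below the lowest Ctrl library. On the log2 scale the difference was -0.75 ± 0.39 in CIA against Ctrl, with an unadjusted p of 0.0938 and an adjusted p of 0.364 by limma. Without CIA replicate 2 it was -1.19 and called, and in a fit of all 3 groups, with the same fold change, it was also called. Relative to CIA, CIA+THz stood at 0.42 ± 0.38, or 0.70 with FPKM as deposited, and at 0.87 and called without the same library. For CIA+THz against Ctrl it was -0.32 ± 0.15, or -0.02 with FPKM as deposited, with an adjusted p of 0.318 by limma after rescaling.

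The ratio of Gclm to Gclc was therefore unsteady. It lay between 3.85 and 11.7 over the 9 libraries with a median of 5.45, and both the lowest and the highest value were CIA libraries. Since FPKM is per length, this ratio compares transcripts of the 2 subunits, not their proteins.

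Txnrd1 (chromosome 10, 82833951 to 82897712), thioredoxin reductase 1, passes electrons from NADPH to thioredoxin. Its rescaled FPKM was 12.5, 8.94 and 10.6 in Ctrl, 9.56, 7.93 and 7.66 in CIA, and 8.60, 10.4 and 8.13 in CIA+THz. All pairs of groups overlapped, with the highest value in Ctrl and the lowest in CIA. The log2 fold change was -0.34 ± 0.19 in CIA against Ctrl, with an adjusted p of 0.391 by limma, and 0.11 ± 0.16 in CIA+THz against CIA. The latter was 0.38 with FPKM as deposited, with an unadjusted p of 0.0477, a scale on which 19.9% of all genes were higher at an unadjusted p under 0.05. Relative to Ctrl, CIA+THz stood at -0.23 ± 0.18, or 0.07 with FPKM as deposited.

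Prdx1 (chromosome 4, 116685544 to 116700822), a peroxiredoxin that reduces hydrogen peroxide with thioredoxin, was 66.7, 67.8 and 60.1 in Ctrl, 89.7, 63.1 and 74.6 in CIA, and 66.4, 80.0 and 68.1 in CIA+THz. The Ctrl libraries were close together, and the highest values were 1 library each of CIA and CIA+THz. Its log2 fold change was 0.21 ± 0.15 in CIA against Ctrl, with an adjusted p of 0.501 by limma, and 0.14 ± 0.11 in CIA+THz against Ctrl, with an unadjusted p of 0.250. The latter was 0.44 with FPKM as deposited, with an unadjusted p of 0.00513, and on that scale Prdx1 was also under 0.05 across the 3 groups. Against CIA, the CIA+THz value was -0.07 ± 0.15, or 0.20 with FPKM as deposited.

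The superoxide dismutases convert superoxide to hydrogen peroxide, SOD1 mainly in the cytosol and SOD2 in mitochondria. Sod1 (chromosome 16, 90220754 to 90226329) was 29.7, 38.6 and 25.5 in Ctrl, 32.7, 33.1 and 22.4 in CIA, and 24.2, 29.9 and 33.8 in CIA+THz. The 3 groups covered almost the same range. The change, as a log2 fold, was -0.09 ± 0.21 in CIA against Ctrl and 0.00 ± 0.19 in CIA+THz against CIA, with adjusted p of 0.871 and 1.000 by limma. Against Ctrl, the CIA+THz value was -0.08 ± 0.19, or 0.22 with FPKM as deposited.

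Sod2 (chromosome 17, 13006846 to 13040063) was the lowest of the 10 genes. It was 3.81, 4.71 and 2.54 in Ctrl, 3.18, 2.80 and 3.96 in CIA, and 2.55, 2.55 and 2.52 in CIA+THz. The CIA+THz libraries were nearly identical and lay below all CIA libraries and at the level of the lowest Ctrl library. On the log2 scale the difference was -0.36 ± 0.21 in CIA+THz against CIA, with an adjusted p of 0.508 by limma, and -0.48 ± 0.27 in CIA+THz against Ctrl, with an adjusted p of 0.393. Without Ctrl replicate 3 the second of these was -0.72 and called, while with FPKM as deposited the 2 values were -0.09 and -0.18. In CIA against Ctrl it was -0.12 ± 0.30. The level of Sod1 was 5.65 to 13.4 times that of Sod2 over the 9 libraries, with a median of 10.01.

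Cat (chromosome 2, 103453849 to 103485160), catalase, which splits hydrogen peroxide into water and oxygen, was the only one of the 10 genes called in arthritis. Its rescaled FPKM was 137, 205 and 131 in Ctrl, 106, 86.8 and 86.0 in CIA, and 108, 155 and 112 in CIA+THz. All CIA libraries were below all others, CIA+THz overlapped Ctrl, and CIA+THz replicate 1 was close to CIA replicate 1. The log2 fold change was -0.74 ± 0.19 in CIA against Ctrl, a ratio of 0.598, with an unadjusted p of 0.00592 and an adjusted p of 0.140 by limma. Without Ctrl replicate 2 it was -0.54, which is short of the fold change the rule asks for, so that none of the 10 genes was called. For CIA+THz against CIA it was 0.42 ± 0.16, a ratio of 1.34, with an unadjusted p of 0.0367 and an adjusted p of 0.347 by limma. This was 0.70 and called with FPKM as deposited, where 1133 of 12394 genes were called higher. The unadjusted p by limma was above 0.05 with no filter (0.0559), no trend (0.0765), the replicate block (0.063) or all 3 groups in 1 fit (0.0505). It was also above 0.05 without CIA replicate 2 (0.103), CIA replicate 3 (0.108) or CIA+THz replicate 2 (0.0927). For CIA+THz against Ctrl it was -0.32 ± 0.21, or -0.01 with FPKM as deposited. Across the 3 groups the unadjusted p was 0.00898 and the adjusted p 0.116 by limma, but Cat was not under 0.05 in an F-test on linear values.

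Most markers of red cell precursors, but not Alas2, were lower in arthritis as Cat was. Alas2, the erythroid enzyme of heme synthesis, took 11.4% to 16.7% of the summed FPKM of a library, so that the samples labelled blood leukocyte also held RNA of red cell precursors. Alas2 was 68755 to 102970 in Ctrl, 86779 to 97383 in CIA and 47174 to 65083 in CIA+THz. The CIA libraries lay within the range of Ctrl, and the log2 fold change between them was 0.11. Without Alas2, the summed level of 8 red cell precursor markers was 448 to 845 in Ctrl, 302 to 582 in CIA and 326 to 466 in CIA+THz. Of the 9 markers, all but Alas2 were lower in CIA than in Ctrl, 3 of them called by limma, and 6 of 9 had a negative fold change in CIA+THz against CIA, or 1 of 9 with FPKM as deposited, none of them at an unadjusted p under 0.05 on either scale. Prdx2 and Glrx5, which are also abundant in red cell precursors, were lower in CIA than in Ctrl as Cat was, at log2 fold changes of -0.69 ± 0.27 and -0.89 ± 0.30. Their values in CIA+THz against CIA, -0.03 ± 0.22 and 0.11 ± 0.27, lay nearer to 0 than that of Cat. The part of red cell RNA in the level of Cat was not tested.

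Gpx1 (chromosome 9, 108338903 to 108340343) was the highest and the least steady of the 10. Its rescaled FPKM was 589, 2844 and 1358 in Ctrl, 2300, 1242 and 309 in CIA, and 1391, 1892 and 1676 in CIA+THz. Within Ctrl the highest library was 4.83 times the lowest and within CIA 7.44 times, whereas within CIA+THz it was 1.36 times. The change, as a log2 fold, was -0.46 ± 0.81 in CIA against Ctrl, then 0.77 ± 0.67 for CIA+THz against CIA and 0.32 ± 0.51 in CIA+THz against Ctrl, with adjusted p between 0.652 and 0.813 by limma. With such a spread a difference between groups of that size was not detectable. Leaving out 1 library moved the first of these from -1.09 to 0.36, the second from -0.04 to 1.40 and the third from -0.26 to 0.87.

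The spread of Gpx1 was unusual for a gene of its level. The within-group SD of log2(rescaled FPKM + 0.1), which removes the group means, was 1.09 for Gpx1 and lay between 0.157 for Nfe2l2 and 0.483 for Gclc in the other 9 genes. Among the 9748 tested genes with a mean of at least 1, Gpx1 stood at percentile 96.8 of this SD and Gclc at 81.8, while Nfe2l2 stood at 15.6 and Prdx1 at 22.4. Of the 128 tested genes with a mean of at least 500, a limit chosen after the values were seen, 2 had an SD as large as that of Gpx1, itself included. The 2 libraries lowest in Gpx1, CIA replicate 3 and Ctrl replicate 1, did not share a position in Cat, where one was lowest of all 9 and the other second highest among Ctrl. The libraries nevertheless had the same order in both genes within CIA and within CIA+THz, and Ctrl replicate 2 was the highest of Ctrl in both.

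**Figure D3:**
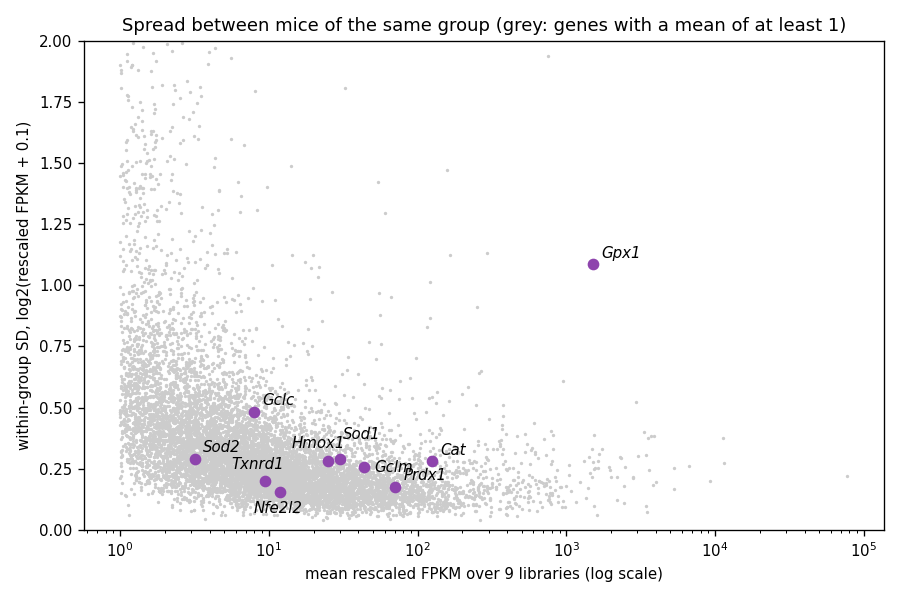
Within-group SD of log2(rescaled FPKM + 0.1) (vertical axis) against the mean rescaled FPKM over 9 libraries (horizontal axis, log scale), with grey points for tested genes that have a mean of at least 1 and labelled points for the 10 genes. Gpx1 stands apart at an SD of 1.09, the other 9 genes lie at or below 0.483, and 72 genes above an SD of 2 are beyond the axis.

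Group ranges give a view that does not use a model, and the ranges here and for other genes are of rescaled FPKM unless stated otherwise. In CIA against Ctrl the ranges of 2 of the 10 genes did not overlap, Hmox1 higher and Cat lower, against 23.5% of all genes tested. In CIA+THz against CIA it was 3 of 10, Cat higher and Hmox1 and Sod2 lower, against 19.6%. In CIA+THz against Ctrl it was Gclc alone, lower, against 24% of all genes. With FPKM as deposited Cat stayed apart in both of its comparisons, while Hmox1, Sod2 and Gclc overlapped in theirs. On that scale Nfe2l2, Gclm and Txnrd1 came apart higher in CIA+THz against CIA. Gclm came apart lower in CIA against Ctrl, and Prdx1 higher in CIA+THz against Ctrl. The share of all genes with ranges apart on that scale was not computed. After rescaling, Cat and Hmox1 were the 2 genes apart both in CIA against Ctrl and in CIA+THz against CIA, each with opposite signs in them. Those comparisons share the CIA libraries, so a high or low CIA group gives opposite signs in both. With 3 libraries against 3 an exact permutation test of a single gene cannot give a p below 0.1.

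The members were also set beside their promoter matches. Of the 5 genes with a response element core, Nfe2l2, Gclm, Txnrd1, Prdx1 and Sod1, none was called in any comparison or across the groups after rescaling. None had ranges apart in any comparison on that scale, but with FPKM as deposited those of Nfe2l2, Gclm, Txnrd1 and Prdx1 came apart, as given above. Across the groups, Prdx1 was under 0.05 with FPKM as deposited and on the TPM scale, and Gclm without Ctrl replicate 3. Cat, Sod2 and Gpx1, without a match in the window, included the only gene called between 2 groups, Cat. The number of genes is too small for a test, and elements farther from the start were not searched.

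Further targets of NRF2 lay mostly lower in CIA+THz beside CIA after rescaling, and less so with FPKM as deposited. Of 22 listed targets other than the 10, 18 were lower and 4 higher in that comparison, with a median log2 fold change of -0.32, and 10 were lower and 1 higher at an unadjusted p under 0.05, against 7.33% lower and 5.89% higher of all genes tested. These counts turned on the scaling, since with FPKM as deposited 13 were lower and 9 higher, with 1 lower and 2 higher at that p, against 1.11% lower and 19.9% higher of all genes. Among the 22 genes, limma called 2 in CIA+THz against CIA after rescaling, Txn1 lower and Gsta4 higher, beside 363 higher and 198 lower of all 12366 genes. In CIA against Ctrl, 14 were higher and 8 lower. There 1 was called higher and 2 lower, beside 592 higher and 526 lower of all genes. The same list had 1 gene called higher and 1 called lower in CIA+THz against Ctrl, beside 574 higher and 401 lower.

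Txn1, thioredoxin itself, was 53.8, 65.2 and 48.7 in Ctrl, 65.0, 78.0 and 69.4 in CIA, and 47.3, 37.9 and 46.4 in CIA+THz. All CIA+THz libraries were below all libraries of the other groups. Its log2 fold change was -0.69 ± 0.12 in CIA+THz against CIA, with an adjusted p of 0.189 by limma, and 0.35 ± 0.14 in CIA against Ctrl. The first of these was -0.41 and not called with FPKM as deposited. Its reductase Txnrd1 was at 0.11 ± 0.16 in CIA+THz against CIA.

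Slc7a11, the cystine importer that feeds glutathione synthesis, was lower in both arthritic groups. It was 4.47, 3.49 and 2.99 in Ctrl, 2.00, 1.83 and 2.30 in CIA, and 1.48, 1.62 and 1.15 in CIA+THz. The 3 groups did not overlap each other. On the log2 scale the difference was -0.79 ± 0.27 in CIA against Ctrl and -1.30 ± 0.27 in CIA+THz against Ctrl, both of them called, also with FPKM as deposited. Their adjusted p by limma were 0.211 and 0.103. Relative to CIA, CIA+THz stood at -0.51 ± 0.26, which was not called.

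Srxn1, sulfiredoxin, which restores overoxidised peroxiredoxins such as PRDX1, averaged 60.8 ± 8.18 (SD, n = 3) in Ctrl, 54.3 ± 6.49 with arthritis alone and 43.4 ± 4.52 in CIA+THz. All CIA+THz libraries were below all others, but CIA+THz replicate 3 at 48.1 was only just below CIA replicate 3 at 48.2. Srxn1 stood at a log2 fold change of -0.48 ± 0.13 in CIA+THz against Ctrl and -0.32 ± 0.13 in CIA+THz against CIA. Neither of them was called, and with FPKM as deposited they were -0.17 and -0.04. Nqo1, the quinone reductase often used as a readout of NRF2, was low in blood, at 0.271 to 3.07 in Ctrl, 0.395 to 1.73 in CIA and 0.337 to 2.34 in CIA+THz. The groups overlapped almost fully, so Nqo1 gave no usable comparison.

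The other called targets were Osgin1, Ephx1 and Gsta4. Osgin1, a growth inhibitor induced by oxidative stress, rose by 0.72 ± 0.24 in CIA against Ctrl, with an adjusted p of 0.202 by limma. Ephx1, microsomal epoxide hydrolase, was higher by 0.72 ± 0.22 in CIA+THz than in Ctrl, with an adjusted p of 0.171. Gsta4, a glutathione transferase, was listed at 0 in all 3 CIA libraries and in 1 Ctrl library and at 0.903 to 2.90 in CIA+THz, so no fold change is given. Fth1, ferritin heavy chain and the highest of the list, was 5100 to 6354 in Ctrl, 4937 to 6440 in CIA and 4030 to 4959 in CIA+THz, and was not called.

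**Figure D4:**
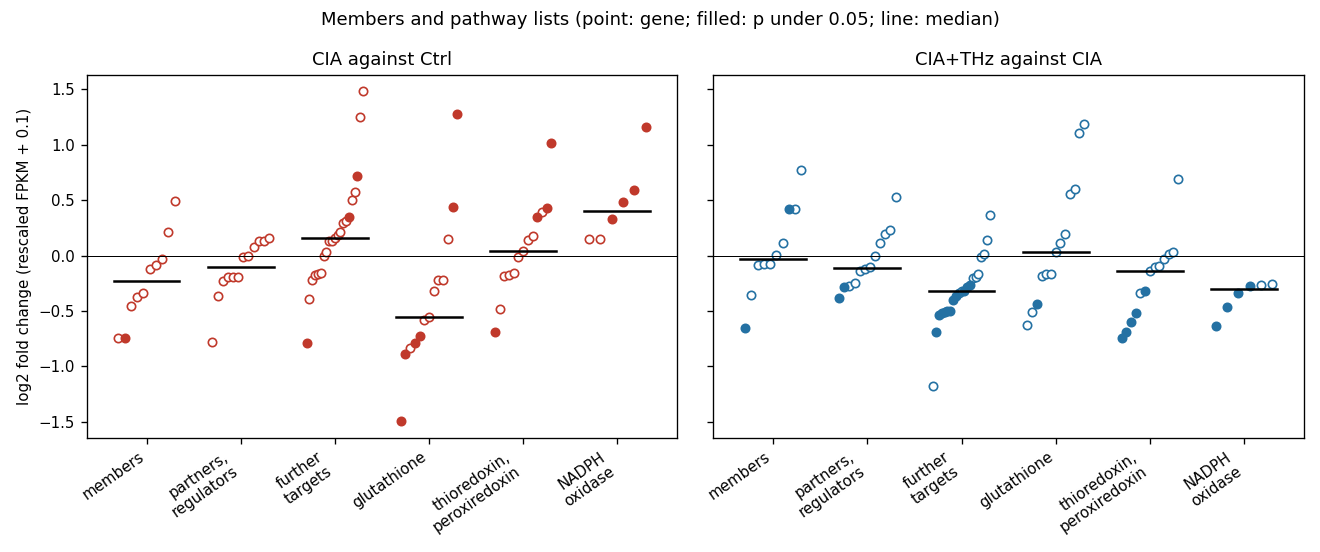
Difference in log2(rescaled FPKM + 0.1) (vertical axis) of the 10 genes and of the genes of 5 pathway lists, in CIA against Ctrl (left) and CIA+THz against CIA (right), with a point per gene, filled at an unadjusted p under 0.05 by limma, and a line at the median. Further NRF2 targets have a median of -0.32 on the right, where the 10 genes have -0.03, and both would move up by 0.28 with FPKM as deposited; Gsta4 and Mpo are left out because they are listed at 0 in all CIA and all Ctrl libraries, respectively.

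The glutathione system was followed beyond Gclm, Gclc and Gpx1. Of 13 listed genes, 10 were lower and 3 higher in CIA than in Ctrl, with a median of -0.55, and limma called 1 higher and 4 lower, beside 592 higher and 526 lower of all 12366 genes and a median of -0.01. With irradiation (CIA+THz against CIA) none was called, 1 had an unadjusted p under 0.05, and the median was 0.03. A total of 3 were called in CIA+THz against Ctrl, all lower, beside 401 lower of all 12366 genes. With FPKM as deposited the calls were 1 higher and 3 lower in CIA against Ctrl, 2 higher in CIA+THz against CIA, and 1 higher and 1 lower in CIA+THz against Ctrl. Of all 12394 genes on that scale, 616 were called higher and 456 lower in the first of these comparisons. In the second 1133 were called higher, and in the third 1600 higher and 120 lower. Chac2, which degrades glutathione, was 18.9 ± 3.88 in Ctrl as against 11.3 ± 1.98 in CIA and 10.1 ± 2.34 in CIA+THz. It fell by 0.73 in CIA and by 0.91 in CIA+THz against Ctrl, with adjusted p of 0.166 and 0.137 by limma, the second of which was -0.60 and not called with FPKM as deposited. Gpx3, the secreted glutathione peroxidase, rose by 1.27 ± 0.39 in CIA against Ctrl, from 1.21 ± 0.460 to 2.96 ± 0.695. Gpx4, which reduces lipid peroxides and was the highest of the list, was 490 to 623 in Ctrl, 520 to 703 in CIA and 405 to 499 in CIA+THz, all far closer together than the libraries of Gpx1.

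In the thioredoxin and peroxiredoxin system, 2 of 13 genes were called in CIA against Ctrl, 1 in each direction, 2 in CIA+THz against CIA, both lower, and 1 in CIA+THz against Ctrl, lower. Of all genes, 9.04%, 4.54% and 7.88% were called in these comparisons. With FPKM as deposited 1 was called in CIA against Ctrl, Prdx5, higher, beside 616 higher of all 12394 genes, and none in the other comparisons. The lists share genes, so their counts are not separate results. Txn1 and Srxn1 are also among the further targets, and Slc7a11 and Gsr are among both the further targets and the glutathione genes. Prdx5, a mitochondrial and peroxisomal peroxiredoxin, was 49.4, 41.7 and 29.9 in Ctrl, 88.3, 76.2 and 76.8 in CIA, and 46.4, 46.0 and 51.8 in CIA+THz. The CIA libraries were all far above the others, and Ctrl and CIA+THz overlapped. It rose by 1.02 ± 0.19 in CIA against Ctrl and fell by 0.74 in CIA+THz against CIA, and the adjusted p by limma were 0.0700 and 0.172. Across the 3 groups its adjusted p by limma was 0.0251. With FPKM as deposited the difference between CIA+THz and CIA was -0.46 and not called. Prdx2, the main peroxiredoxin of red cells and the highest of the list, was 956 ± 271 in Ctrl as against 585 ± 141 in CIA and 569 ± 108 in CIA+THz. Prdx1 had a log2 fold change of 0.21 ± 0.15 in CIA against Ctrl. The peroxiredoxins thus had values of either sign in arthritis, with Prdx5 called higher, Prdx2 called lower at -0.69 (-0.66 and not called with FPKM as deposited) and Prdx1 not called. Of the list of further superoxide genes, Sod3 was too low to be tested and Ccs, the copper chaperone of SOD1, was not called.

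The phagocyte NADPH oxidase makes the superoxide that these enzymes remove. The genes followed were Cybb, Cyba, Ncf1, Ncf4 and Rac2, 5 of its subunits, and, among the tested genes, 2 that are no part of it, the reductase Cyb5r3 and the neutrophil granule enzyme Mpo, which was listed at 0 in all Ctrl libraries. All 5 subunits had positive fold changes in CIA against Ctrl, 4 of them at an unadjusted p under 0.05, where 8.85% of all genes were higher at that p. In CIA+THz against CIA all 5 had negative ones, 4 of them at that p, where 7.33% of all genes were lower. As deposited, 3 were lower and 2 higher, with 1 lower at that p, beside 1.11% of all genes. Cyb5r3 and Mpo did not pass that p in either comparison. Limma called 1 of them, Cybb, the catalytic subunit, in CIA against Ctrl and in CIA+THz against Ctrl. Cybb was 33.0, 27.0 and 29.5 in Ctrl, 69.8, 55.6 and 75.8 in CIA, and 52.3, 51.3 and 54.4 in CIA+THz. The 3 groups did not overlap, and the log2 fold change was 1.16 ± 0.15 in CIA and 0.82 ± 0.11 in CIA+THz against Ctrl, with adjusted p of 0.0501 and 0.0540 by limma. Its adjusted p across the groups was 0.00865. Rac2, the highest of the list, had a log2 fold change of 0.33 ± 0.14 in CIA against Ctrl and was not called. Nox1 was too low to be tested. Monocytes, whose markers were higher in CIA, express this oxidase, and their part in these levels was not tested.

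Other cell types moved too. The summed level of 8 mature neutrophil markers was 12392 to 20916 in Ctrl, 14220 to 18400 in CIA and 10524 to 11971 in CIA+THz, and all 8 had negative fold changes in CIA+THz against CIA, or 7 of 8 with FPKM as deposited. That of 8 T cell markers was 287 to 328 in Ctrl, 245 to 277 in CIA and 289 to 365 in CIA+THz, and each of the 8 was lower in CIA than in Ctrl, with the opposite sign between CIA+THz and CIA, on both scales. The leukocyte markers Ptprc, Coro1a and Laptm5 summed to 830 to 907 in Ctrl, 970 to 1078 in CIA and 934 to 945 in CIA+THz, and the 3 groups did not overlap. Ptprc went against this sum, at -0.52 ± 0.32 in CIA against Ctrl, and at 0.67 ± 0.27 and called in CIA+THz against CIA. Coro1a and Laptm5 were at 0.41 and 0.25 in CIA against Ctrl, and at -0.27 and -0.18 in CIA+THz against CIA. Of the immature neutrophil markers, which summed to 296 to 510 in Ctrl, 546 to 1477 in CIA and 326 to 445 in CIA+THz, Mpo was at 0 in all Ctrl libraries. Their sum in CIA+THz overlapped Ctrl, but 6 of 7 had positive fold changes between these groups, with a median of 1.17. Limma called 3 higher and 1 lower there, beside 574 higher and 401 lower of all 12366 genes. In Ctrl, CIA and CIA+THz, sums of NK cell markers were 151 to 198, 62.7 to 138 and 102 to 160. Those of B cell markers were 411 to 490, 429 to 571 and 510 to 709, and those of platelet markers 4017 to 4855, 3732 to 4706 and 3175 to 3826. The part of any of these cells in the levels of the 10 genes was not tested.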

How the data were processed

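The authors deposited 1 table of FPKM values for 9 mouse blood libraries. The submitters' processing notes name bcl2fastq 2.0, HISAT2, StringTie, DESeq2 and the build mm10, while the annotation, strand and treatment of shared reads are not given in the sources used here. Reads of Sod1, Txnrd1 and Gclm therefore cannot be told apart from those of genes overlapping them, nor those of Prdx1, Txn1 and Fth1 from any pseudogene copies. The file holds no counts, so depth is unknown and no interval from depth is given.

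Columns were rescaled by median-of-ratios factors (0.847 to 1.24), computed from the 10312 genes with no value at 0. The 12366 genes with a mean of at least 0.1 were tested as log2(rescaled FPKM + 0.1) with limma 3.58.1 (lmFit, eBayes with trend) in R 4.3.3, each pair of groups on its 6 libraries. Fold changes are on this scale, which understates low genes. Scripts were tested on simulated data.

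Groups came from the sample labels, and 0 columns were left unmapped. Members and lists were chosen with earlier results of these data known. Named genes were the members, Keap1, Bach1, Nqo1, Srxn1, Slc7a11 and Txn1, and of each list the called genes (at most 4 per comparison, by p) and the highest one. Replicate numbers pair no animals. Promoters are from RefSeq (GRCm38.p6) and gene positions from GENCODE (GRCm38). Hemoglobin genes and Ahsp were not analysed here. One gene of a pathway list is not reported here. Alternatives tried were other scalings, pseudocounts, filters and variance models, a replicate block, leaving out each library, the adjusted p, an F-test on linear values and, chosen after seeing the data, no fold change minimum.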

Additional observations from a re-analysis of the deposited data

How the results depend on the processing

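The count of members called across the groups, 2, was 1 without a trend (Cat) and 1 in an F-test on linear values (Hmox1). It was 0 with the Benjamini-Hochberg adjusted p, and 1 to 3 when 1 library was left out. It stayed at 2 with FPKM as deposited and on the TPM scale, but with Prdx1 in place of Hmox1, and at 2 without CIA replicate 2, with Gclc in its place. The count in CIA against Ctrl, 1, was 2 with all 3 groups in 1 fit, 0 with the adjusted p, and 0 to 2 when 1 library was left out (0 without Ctrl replicate 2, and 2 without CIA replicate 2). The count in CIA+THz against CIA, 0, was 1 with FPKM as deposited and on the TPM scale (Cat, at 0.70 and 0.75), 2 with no fold change minimum, and 0 to 1 when 1 library was left out. The count in CIA+THz against Ctrl, 0, was 0 to 1 in that way (1 without Ctrl replicate 3). With the replicate block, the counts were 3 (with Gclm added), 1, 0 and 0, and the deviations of same-numbered libraries correlated at -0.05 to 0.03, so the numbers are no more than names.

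With FPKM as deposited and on the TPM scale, the sign turned in CIA+THz against CIA for Nfe2l2 (0.19 and 0.24), Gclm (0.20 and 0.25) and Prdx1 (0.20 and 0.25), and in CIA+THz against Ctrl for Nfe2l2 (0.19 and 0.19), Hmox1 (0.14 and 0.14), Txnrd1 (0.072 and 0.076) and Sod1 (0.22 and 0.23). Leaving out 1 library turned the sign in CIA against Ctrl for Nfe2l2 (-0.13 to 0.11), Sod1 (-0.22 to 0.10), Sod2 (-0.36 to 0.074) and Gpx1 (-1.09 to 0.36), in CIA+THz against CIA for Gclm (-0.16 to 0.019), Prdx1 (-0.20 to 0.055), Sod1 (-0.18 to 0.13) and Gpx1 (-0.044 to 1.40), and in CIA+THz against Ctrl for Nfe2l2 (-0.21 to 0.023), Sod1 (-0.22 to 0.078) and Gpx1 (-0.26 to 0.87). None of these values was called under the main settings. The other filters, the pseudocount of 1 and the variance model without a trend kept the sign and the call of all 30 member comparisons between pairs of groups. The causes were not tested, and with 3 libraries per group only large or very steady differences could pass.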
